A study of Homo sapiens with 38 samples.

Results

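Neural induction without added WNT activator was followed from undifferentiated H9 cells to day 4. H9 is an established human embryonic stem cell line, here of wild type genotype throughout. The comparison sets the D4 CT0.0 group, neural progenitor cells derived from these stem cells and collected at day 4 with 0.0 µM of CT, against the D0 ESC group, the undifferentiated stem cells at day 0. CT is the WNT activator of the study, a name the labels do not expand. Members were chosen by the group names in the labels: 4 of the 38 libraries, 2 in each group. The other 34 libraries belong to 17 groups of day 4 and day 8 cells that received IWP2, an inhibitor of WNT secretion, CT at 0.0 to 4.0 µM, or CT with retinoic acid. One of them, D4 CT4.0 (CT at 4.0 µM, collected on the same day), is set beside the untreated day 4 cells below for comparison. All cells come from a single line, and the labels call the 2 libraries of a group biological replicates without saying whether they were separate differentiations. The p-values rest on the spread between libraries of the same group, estimated over all 38 libraries in 19 groups. That spread may be technical. Libraries were sequenced on either of 2 instruments, and no label ties a library to one of them, so instrument and day cannot be told apart.

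Human embryonic stem cells in culture are an epithelium. They are held together by E-cadherin and claudins, stay in the primed pluripotent state through FGF and NODAL signalling, and run a glycolysis-heavy metabolism. When these signals are withdrawn and no caudalising signal is given, the cells turn into a neuroepithelium, a layer that keeps apical junctions but replaces E-cadherin with N-cadherin and takes on an anterior, forebrain and eye field identity by default. WNT activation during the same days moves that identity towards the hindbrain.

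Values are TPM, transcripts of a gene as a share of all transcripts in the library after division by transcript length. Read depth cannot be recovered from them, so values carry no counting interval. A change is the log2 fold change of D4 CT0.0 over D0 ESC on log2(TPM + 1) ± its standard error, which understates the change of low genes. Genes were said to have risen or fallen when the Benjamini-Hochberg adjusted p of limma was under 0.05 and the change was at least 1 in size. In these bulk samples, fewer cells of a type and less RNA per cell cannot be told apart. Each library correlated best with the other library of its own group (r = 0.9639 within D4 CT0.0 and 0.9625 within D0 ESC). Mitochondrial genes held 7.21% and 7.36% of TPM at day 4 against 9.87% and 11.5% at day 0, and ribosomal protein genes held 21.2% and 20.2% against 20.3% and 18.2%.

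Over 4 days, 4728 of 28221 genes changed (16.8%). Of these, 2120 rose (7.51% of the genes tested) and 2608 fell (9.24%). The risen genes held 7.70% and 8.09% of all TPM in the untreated day 4 libraries, against 2.43% and 2.49% in the stem cell libraries. The fallen genes held 2.12% and 2.09% of TPM at day 4, against 9.33% and 8.58% at day 0. By at least 3 on the log2 scale, 131 genes rose and 307 fell. Before induction, 550 of the risen genes were under 1 TPM in both stem cell libraries, and 1141 of the fallen genes were under 1 TPM in both untreated day 4 libraries. The 2 groups of libraries did not overlap for 16703 genes (59.2%), so a lack of overlap alone says little about a single gene. By class, 1281 of 15533 protein-coding genes rose and 1913 fell, while 543 of 7181 long noncoding RNA genes rose and 496 fell. Fitted on the 4 libraries alone, which leaves 2 residual degrees of freedom, 1227 genes rose and 1624 fell. TMM scaling moved the median of all genes by -0.104 and gave 1623 rises and 2886 falls. A gene can pass the filter on low values through 1 group alone, so counts over the measured members of a list describe it and are no test. Some list counts lie near the shares over all genes tested (7.51% rose and 9.24% fell) and then say little about the list.

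**Figure D1:**
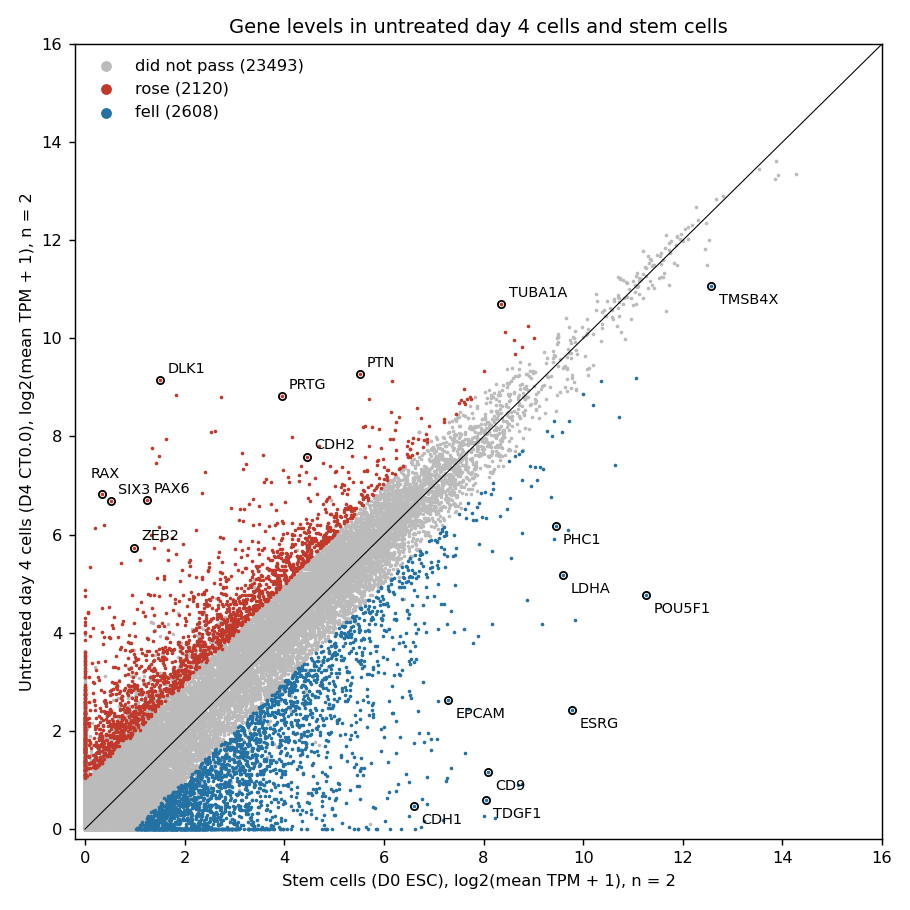
Mean level of each of the 28221 tested genes in untreated day 4 cells (vertical axis) and in stem cells (horizontal axis), both as log2(mean TPM + 1). Each point is a gene, coloured by whether it rose (2120), fell (2608) or did not pass the test; the 6 marker genes and 12 other large changes are labelled. POU5F1 lies far below the diagonal among the most abundant fallen genes and DLK1 far above it.

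The 6 marker genes moved the way the cell types in the labels would have them. POU5F1, the OCT4 transcription factor of pluripotent cells (chromosome 6, 31164337 to 31180731, minus strand of hg38), had 20.5 and 32.4 TPM in the untreated day 4 libraries, against 2514 and 2399 TPM in the stem cell libraries (log2 fold change -6.52 ± 0.31, adjusted p = 1.1e-13). Both day 4 libraries were still above 20 TPM, far below either stem cell library. TDGF1, the NODAL co-receptor also called CRIPTO (chromosome 3, 46574534 to 46582463, plus strand), had 0.402 and 0.596 TPM at day 4 against 249.7 and 275 TPM at day 0 (log2 fold change -7.46 ± 0.17, adjusted p = 5.3e-19). CDH1, which encodes E-cadherin (chromosome 16, 68737225 to 68835548, plus strand), was nearly as clear, with 0.263 and 0.507 TPM at day 4 against 98.0 and 94.0 TPM at day 0 (log2 fold change -6.14 ± 0.27, adjusted p = 3.1e-14). On the neural side, PAX6, a paired box factor of neural progenitors and the eye (chromosome 11, 31784779 to 31818062, minus strand), had 99.7 and 107 TPM at day 4, against 1.23 and 1.49 TPM in stem cells (log2 fold change 5.46 ± 0.16, adjusted p = 5.2e-17). RAX, the eye field homeobox factor (chromosome 18, 59267035 to 59274086, minus strand), had 104 and 120.2 TPM at day 4 against 0.239 and 0.276 TPM at day 0 (log2 fold change 6.49 ± 0.21, adjusted p = 1.8e-16). DLK1, an imprinted gene for a NOTCH-like transmembrane protein (chromosome 14, 100725705 to 100738224, plus strand), had 529 and 608 TPM at day 4 against 2.85 and 0.842 TPM at day 0 (log2 fold change 7.74 ± 0.35, adjusted p = 4.4e-14). In all 6 genes the libraries of the 2 groups were far apart and did not overlap.

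Most cofactors of POU5F1 fell, but not all. Of 27 measured cofactors of primed pluripotency (of 31 listed), 18 fell, 3 rose and 6 did not pass, with a median change of -1.61 against 0.05 over all genes tested. ZFP42, the zinc finger protein REX1, had 1.25 and 0.907 TPM at day 4 against 106 and 125 TPM at day 0 (log2 fold change -5.81 ± 0.20, adjusted p = 4.7e-16). Little of its stem cell level was left in either day 4 library. L1TD1, an RNA-binding protein derived from a LINE-1 element, had 13.8 and 15.01 TPM at day 4 against 187 and 285 TPM at day 0 (log2 fold change -3.92 ± 0.34). FOXD3, a forkhead factor of stem cells and neural crest, was listed at 0 and 0 TPM at day 4 against 9.45 and 9.70 TPM at day 0. Against this, OTX2, a homeobox factor of the primed epiblast that the anterior neural plate goes on using, rose, with 214 and 218 TPM at day 4 against 65.8 and 55.7 TPM at day 0 (log2 fold change 1.82 ± 0.27, adjusted p = 8.2e-06). ETV5 (1.38), an ETS factor downstream of FGF, and ESRRB (1.41), an orphan nuclear receptor at 3.34 TPM, also rose. TRIM71, a ubiquitin ligase and RNA repressor of early embryos, stood at 125 ± 4.08 TPM at day 4 and 132 ± 6.16 TPM at day 0 (log2 fold change -0.07 ± 0.07, adjusted p = 0.459). SALL4 (127 TPM at day 4 against 68.9 TPM at day 0, log2 fold change 0.87) and LIN28B (0.28), which blocks let-7 maturation, did not pass.

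Cell surface and signalling proteins of stem cells followed, with 16 of 23 measured members lower, 2 higher (0 with TMM scaling or without replicate 2 of D4 CT0.0, and 1 without replicate 1 of D0 ESC) and a median change of -1.83. CD9, a tetraspanin used to sort pluripotent cells, had 0.839 and 1.67 TPM at day 4 against 276 and 265 TPM at day 0 (log2 fold change -6.94 ± 0.27, adjusted p = 3.7e-15). PODXL, the podocalyxin that carries the TRA-1 epitopes, had 59.9 and 58.6 TPM at day 4 against 743 and 626 TPM at day 0 (log2 fold change -3.50 ± 0.19, adjusted p = 1.3e-12), so both day 4 libraries still held an appreciable level. Further falls were in LCK (-4.92), a SRC family kinase, and SCNN1A (-4.73), a subunit of the epithelial sodium channel. B3GNT7 (-4.29), a glycosyltransferase of keratan sulfate, fell as well. ALPL, the alkaline phosphatase used as a stain for pluripotent cells, stood at 177 ± 0.721 TPM at day 4 and 171 ± 15.01 TPM at day 0 and did not pass (log2 fold change 0.05 ± 0.12, adjusted p = 0.797).

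Among signalling genes of the NODAL and activin pathway, 6 of 20 measured members fell and 2 rose (median change -0.19), or 3 and 1 when fitted on the 4 libraries alone. The 6 members that fell in the main fit were ligands, co-receptors and feedback inhibitors: TDGF1, GDF3 (-3.09), INHBE (-2.96), LEFTY1 (-2.67), LEFTY2 (-2.26) and SMAD7 (-1.44). The LEFTY genes, NODAL targets that encode its antagonists, were low even in stem cells. LEFTY1 had 0 and 0.0519 TPM at day 4 against 3.08 and 9.37 TPM at day 0, and its change was -1.99 without replicate 2 of D0 ESC and -3.34 without replicate 1. Of the SMAD transducers, SMAD3 rose (16.6 and 23.7 TPM at day 4 against 9.35 and 6.28 TPM at day 0, log2 fold change 1.27 ± 0.17, adjusted p = 2.3e-06), and SMAD4 (0.56) and SMAD2 (0.57) did not pass. FST, the follistatin that binds activin and BMP, had 37.7 and 46.2 TPM at day 4 against 11.2 and 15.9 TPM at day 0 (log2 fold change 1.58 ± 0.18, adjusted p = 1.6e-07). In the BMP pathway, 5 of 29 measured members rose (3 with TMM scaling) and 2 fell, with a median change of 0.15. The ID genes, targets of BMP that block bHLH factors, split: ID1 fell (3.13 and 5.23 TPM at day 4 against 79.1 and 62.8 TPM at day 0, log2 fold change -3.82 ± 0.31, adjusted p = 1.2e-09) and ID2 rose (335 and 332 TPM at day 4 against 118 and 93.0 TPM at day 0, log2 fold change 1.66 ± 0.19, adjusted p = 3.3e-07). ID3 had 49.7 ± 5.07 TPM at day 4 and 89.8 ± 24.9 TPM at day 0 and did not pass (-0.82), though it did without replicate 1 of D0 ESC (-1.10). BAMBI, a decoy receptor and BMP target, fell to 0.863 and 0.772 TPM at day 4, against 9.01 and 9.9972 TPM at day 0.

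Noncoding RNAs held some of the deepest falls in the table. LINC00678 had 0.608 and 1.15 TPM at day 4 against 431 and 444 TPM at day 0 (log2 fold change -7.88 ± 0.23, adjusted p = 4.1e-17). ESRG, an endogenous retrovirus-derived RNA of the HERV-H family, had 4.38 and 4.37 TPM at day 4 against 958 and 793 TPM at day 0 (log2 fold change -7.34 ± 0.16, adjusted p = 1.9e-19). For both RNAs the day 4 libraries lay close together and far below the stem cell libraries. LNCPRESS2 (-6.64), LNCPRESS1 (-4.70) and LINC01405 (-3.09) fell as well, and so did LINC01194 (-6.98) and LINC00428 (-5.85). Of 21 measured stem cell and general noncoding RNAs 11 fell and 3 rose. The risen ones were MEG3 (3.001), the maternally expressed partner of DLK1, SOX2-OT (44.6 and 46.7 TPM at day 4 against 5.27 and 5.52 TPM at day 0, log2 fold change 2.87 ± 0.22, adjusted p = 5.5e-10), which spans SOX2, and MALAT1, a nuclear-retained RNA. MALAT1 had 347 and 278 TPM at day 4 against 82.1 and 66.5 TPM at day 0 (log2 fold change 2.06 ± 0.17, adjusted p = 2.2e-09). GAS5 and SNHG1, host genes of small nucleolar RNAs, did not pass (-0.20 and 0.20).

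The microRNA cluster of pluripotent cells was lower at day 4, with more spread than the genes above. The miR-302 and miR-367 hairpins lie within 1 transcript on the minus strand of chromosome 4 (112647874 to 112648557 of GRCh38.p14), and their products repress brakes on the cell cycle and on pluripotency. The mature 3p sequences are shown because 4 of the 5 share a seed. They are from RefSeq (GRCh38.p14), written 5′ to 3′, with the seed, bases 2 to 8, in capitals.
miR-302a-3p: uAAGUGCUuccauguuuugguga
miR-302b-3p: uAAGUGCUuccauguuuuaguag
miR-302c-3p: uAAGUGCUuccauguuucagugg
miR-302d-3p: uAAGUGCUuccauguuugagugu
miR-367-3p: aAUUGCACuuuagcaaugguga
The 4 miR-302 members share the seed AAGUGCU and differ after it, while miR-367 has the seed AUUGCAC. The host transcript, listed as RP11-148B6.1, had 406 and 269 TPM at day 4 against 1593 and 1775 TPM at day 0 (log2 fold change -2.34 ± 0.69, adjusted p = 0.0097). It was lower in both day 4 libraries, though it stayed abundant in both. The row is annotated as an antisense gene, and the labels do not say whether the libraries kept strand. Its fall lost the call without replicate 2 of D4 CT0.0 (-2.05, adjusted p = 0.080) and without replicate 2 of D0 ESC (-2.27, adjusted p = 0.052). The hairpins have rows of their own, whose reads cannot be told apart from those of the host transcript around them, and gave 16.8 and 24.6 TPM at day 4 against 161 and 162 TPM at day 0 for MIR367 (log2 fold change -2.93 ± 0.74, adjusted p = 0.0029). MIR302D (-3.26) and MIR302C (-2.85) fell too, the MIR302C call being lost without replicate 2 of D4 CT0.0 or without replicate 1 of D0 ESC. With a pseudocount of 0.1 the calls of the host, MIR367 and MIR302C were lost. Mature microRNAs were not measured. Of 22 measured members of the list of microRNA genes and hosts, 8 fell (5 with a pseudocount of 0.1) and 2 rose. Fewer fell without replicate 2 of D4 CT0.0 or without replicate 1 of D0 ESC. Host transcripts in this list moved in both directions. MIR124-2HG rose (17.5 and 16.95 TPM at day 4 against 1.21 and 0.762 TPM at day 0, log2 fold change 3.21 ± 0.15, adjusted p = 7.5e-14), and DGCR8, the partner of the DROSHA enzyme that cuts hairpins, rose (1.41). LINC00599 of the same list fell (4.72 and 5.53 TPM at day 4 against 41.5 and 33.4 TPM at day 0, log2 fold change -2.64 ± 0.19, adjusted p = 1.2e-10), and so did C1orf61 (-2.65). LIN28A stayed high, at 851 ± 10.7 TPM at day 4 and 674 ± 19.0 TPM at day 0 (log2 fold change 0.34 ± 0.06).

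Epithelial junction and polarity genes fell or did not pass, and no member rose. Of 47 measured members (of 50), 32 fell, 0 rose and 15 did not pass, with a median change of -1.82 against 0.05 over all genes; at an unadjusted p under 0.05, limma had 39 lower and 2 higher. CLDN7, a claudin of tight junctions, had 0 and 0.407 TPM at day 4 against 97.8 and 82.0 TPM at day 0 (log2 fold change -6.25 ± 0.28, adjusted p = 4.1e-14). AP1M2, a subunit of the adaptor that sorts proteins to the basolateral membrane, had 0.681 and 0.390 TPM at day 4 against 109.5 and 105 TPM at day 0 (log2 fold change -6.15 ± 0.30, adjusted p = 1.8e-13). EPCAM, the epithelial adhesion molecule, had 4.92 and 5.43 TPM at day 4 against 151 and 159 TPM at day 0 (log2 fold change -4.66 ± 0.17, adjusted p = 1.9e-15). All 3 genes were low in both day 4 libraries while both stem cell libraries were high. ESRP1, the epithelial splicing regulator, had 1.02 and 1.32 TPM at day 4 against 82.7 and 89.3 TPM at day 0 (log2 fold change -5.33 ± 0.24, adjusted p = 4.2e-14). The upstream factors GRHL2 (-3.71), a grainyhead factor, and OVOL2 (-3.38), a zinc finger repressor of mesenchymal genes, fell too, together with the proteases PRSS8 (-4.49) and ST14 (-4.23) and their inhibitor SPINT1 (-3.15). Among all 15 tested claudins, a family gathered by symbol after the values were seen, 9 fell and 0 rose (9 lower and 0 higher at an unadjusted p under 0.05). CLDN6 stayed the most abundant of them, at 161 ± 3.53 TPM at day 4 and 582 ± 6.79 TPM at day 0. Among the members that did not pass, TJP1, the scaffold ZO-1, stood at 64.4 ± 0.796 TPM at day 4 and 54.6 ± 8.97 TPM at day 0 (0.24), CXADR at 59.5 ± 1.11 and 59.9 ± 2.90 TPM (-0.01) and JUP, plakoglobin, at 80.8 ± 6.73 and 67.0 ± 0.392 TPM (0.26).

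ZEB1 and ZEB2 rose over the same days. They are zinc finger homeobox repressors of E-cadherin that bind E-box sequences of the form CAGGTG, read CACCTG on the other strand. ZEB2 had 50.5 and 54.0 TPM at day 4 against 0.990 and 0.946 TPM at day 0 (log2 fold change 4.76 ± 0.15, adjusted p = 1.2e-16), and ZEB1 had 16.6 and 21.5 TPM at day 4 against 0.488 and 0.492 TPM at day 0 (log2 fold change 3.74 ± 0.24, adjusted p = 2.0e-11). Both were under 1 TPM on average in stem cells and did not overlap between the groups. Of 13 measured transcription factors of epithelial to mesenchymal transition, these 2 rose (4 without replicate 1 of D4 CT0.0) and 2 fell (1 without replicate 1 of D0 ESC), SNAI3 (-2.31) among the fallen, at a low level. SNAI1, the Snail factor, had 3.60 ± 0.438 TPM at day 4 and 7.72 ± 0.541 TPM at day 0 and did not pass (-0.93), though it did with TMM scaling (-1.03) and without replicate 1 of D4 CT0.0 (-1.02). To show what the promoters of the fallen genes hold, the 250 bases before the RefSeq start were searched for CAGGTG on both strands. The 3 fallen junction genes with the most matches are printed 5′ to 3′ on the gene's strand (RefSeq, GRCh38.p14), with each CAGGTG or CACCTG in capitals.
CRB3, chr19:6464021-6464270, plus strand: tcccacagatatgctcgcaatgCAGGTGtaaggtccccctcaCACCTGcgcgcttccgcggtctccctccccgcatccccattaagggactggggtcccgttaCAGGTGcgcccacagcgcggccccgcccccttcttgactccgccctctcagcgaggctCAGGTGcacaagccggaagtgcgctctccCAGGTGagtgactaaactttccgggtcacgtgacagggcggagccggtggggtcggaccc
CLDN7, chr17:7262479-7262728, minus strand: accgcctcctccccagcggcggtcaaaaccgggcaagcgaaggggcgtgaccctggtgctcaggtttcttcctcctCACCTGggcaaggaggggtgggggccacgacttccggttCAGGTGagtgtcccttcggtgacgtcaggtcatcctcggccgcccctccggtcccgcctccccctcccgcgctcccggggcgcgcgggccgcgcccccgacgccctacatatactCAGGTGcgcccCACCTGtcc
AP1M2, chr19:10587313-10587562, minus strand: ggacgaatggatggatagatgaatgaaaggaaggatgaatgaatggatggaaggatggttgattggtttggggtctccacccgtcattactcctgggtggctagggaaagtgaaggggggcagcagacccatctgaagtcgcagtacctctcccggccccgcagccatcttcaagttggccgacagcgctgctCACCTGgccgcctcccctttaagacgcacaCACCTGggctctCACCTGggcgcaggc
CRB3, a Crumbs protein of the apical membrane, had 0.597 and 0 TPM at day 4 against 21.1 and 23.3 TPM at day 0 (log2 fold change -4.20 ± 0.25, adjusted p = 8.7e-12), and its window held 5 matches. The CLDN7 window held 4 and the AP1M2 window 3. CLDN7 has another start in the table, whose window held 0 matches, and SPINT1 and CLDN10 also have 2 windows each; a gene with several windows was counted by the one with the most matches, here and over all genes. Of the 32 fallen junction genes, 18 had a promoter in the table, and 9 of these held the motif (50%), 5 of them at least 2 copies (27.8%). CDH1, the E-cadherin gene, was not among the 18, so its promoter was not searched. Of the 15 junction genes that did not pass, 9 had a promoter and 6 held it (66.7%), 2 of them at least 2 copies (22.2%). Over all tested protein-coding genes with a promoter in the table (11743), 21.6% held the motif and 2.90% held at least 2 copies. A match in a window is a description of its letters and not a binding site.

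**Figure D2:**
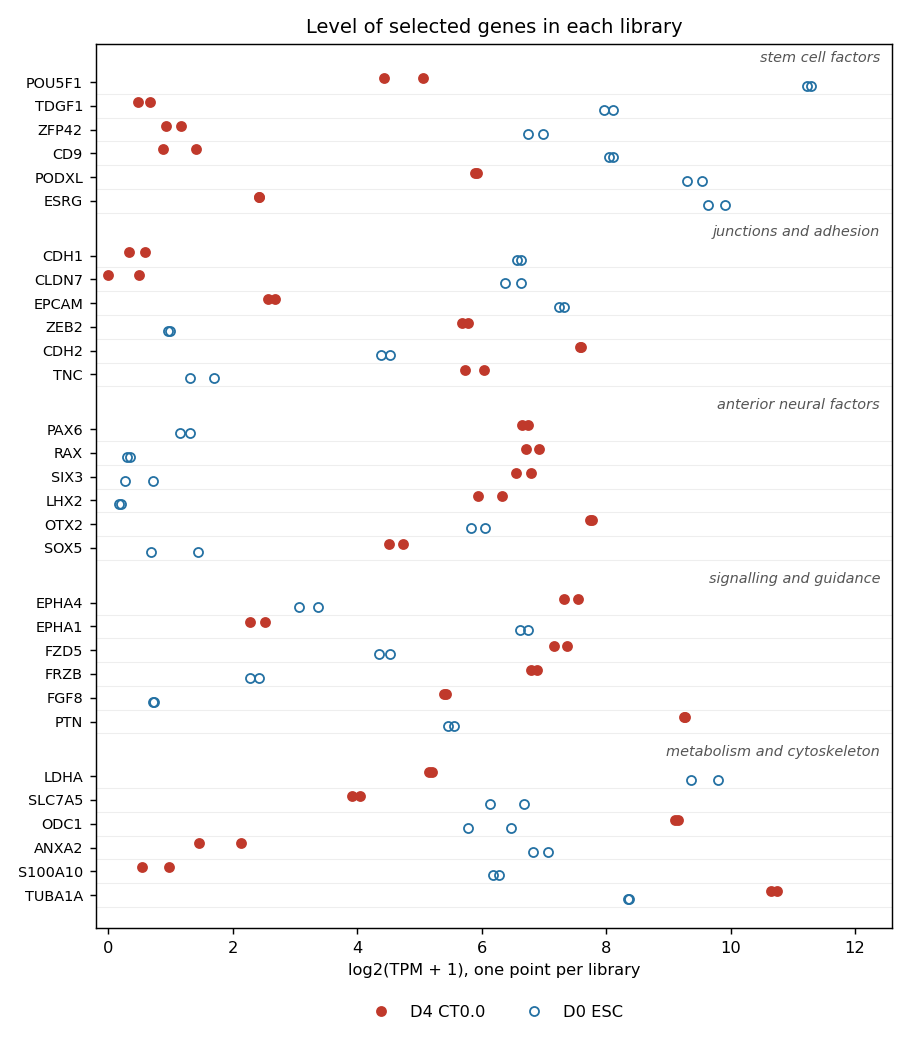
Level of 30 genes in each library as log2(TPM + 1), in 5 blocks by role (stem cell factors, junctions and adhesion, anterior neural factors, signalling and guidance, metabolism and cytoskeleton). In each row the 2 filled points above are the untreated day 4 libraries and the 2 open points below are the stem cell libraries; the points of a pair lie close together and the groups are well apart in every row.

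Of 27 measured members of the cadherin and catenin list without CDH1, 13 rose, 13 did not pass and 1 fell, with a median change of 0.80 (2 fell without replicate 2 of D4 CT0.0). CDH2, N-cadherin, had 191 and 192 TPM at day 4 against 19.9 and 22.1 TPM at day 0 (log2 fold change 3.13 ± 0.06, adjusted p = 1.1e-19). CDH11 had 94.7 and 115 TPM at day 4 against 12.1 and 6.60 TPM at day 0 (log2 fold change 3.40 ± 0.29, adjusted p = 2.5e-09). The level that N-cadherin reached in both day 4 libraries was higher than that of E-cadherin in either stem cell library. CDH6 (2.88), the giant cadherin FAT1 (257 and 337 TPM at day 4 against 48.2 and 48.7 TPM at day 0, log2 fold change 2.58 ± 0.11, adjusted p = 3.1e-14) and CDH10 (2.06) rose as well. CDH3, P-cadherin, was the member that fell (5.09 and 5.57 TPM at day 4 against 93.0 and 91.9 TPM at day 0, log2 fold change -3.89 ± 0.39, adjusted p = 3.0e-08). The catenins that tie both kinds of cadherin to actin did not pass: CTNNB1, β-catenin, stood at 262 ± 10.1 TPM at day 4 and 309 ± 4.65 TPM at day 0 (-0.24), and CTNNA1 at 184 ± 5.23 and 174 ± 4.70 TPM (0.07). Of 18 measured intermediate filament genes 5 fell (3 without replicate 1 of D0 ESC), 3 rose and 10 did not pass. KRT7 (-3.80), KRT18 (28.8 and 32.2 TPM at day 4 against 158 and 187 TPM at day 0, log2 fold change -2.46 ± 0.20, adjusted p = 1.0e-09) and KRT8 (-1.27), the keratins of simple epithelia, fell. NES, nestin, the filament of neural progenitors, had 324 and 353 TPM at day 4 against 75.3 and 79.8 TPM at day 0 (log2 fold change 2.11 ± 0.13, adjusted p = 5.9e-12).

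Matrix genes changed in both directions, as did all genes tested (7.51% rose and 9.24% fell). Of 41 measured fibrillar and other matrix genes, 16 fell and 7 rose, with a median change of -0.34. COL1A2, a chain of type I collagen, had 2.26 and 3.04 TPM at day 4 against 69.0 and 56.8 TPM at day 0 (log2 fold change -4.13 ± 0.30, adjusted p = 2.4e-10), and COL9A3 (-4.05), HAPLN3 (-3.78), COL1A1 (-2.69) and BCAN (-2.63), the brevican core protein, fell too. TNC, tenascin C, a matrix glycoprotein of neural progenitor niches, had 52.3 and 64.6 TPM at day 4 against 2.27 and 1.49 TPM at day 0 (log2 fold change 4.37 ± 0.17, adjusted p = 5.3e-15). SPON1, F-spondin (3.84), COL2A1 (161 and 153 TPM at day 4 against 15.9 and 13.5 TPM at day 0, log2 fold change 3.33 ± 0.14, adjusted p = 9.3e-15), NCAN, neurocan (3.14), and FBN1, fibrillin 1 (2.93), rose. Among integrins and basement membrane genes, 6 of 36 rose and 5 fell (3 without replicate 2 of D4 CT0.0): LAMC3 (-2.97), a laminin chain, fell, and ITGA5, the fibronectin receptor chain (1.77), NID2 (1.45) and LAMA1 (1.21) rose. ITGB1, the common beta chain, had 199.7 ± 3.84 TPM at day 4 and 199 ± 11.1 TPM at day 0 (log2 fold change 0.00 ± 0.06). Heparan sulfate proteoglycans and their ligands rose more often than they fell, 8 against 2 of 24 (8 against 1 without replicate 2 of D0 ESC). PTN, pleiotrophin, a heparin-binding growth factor, had 617 and 611 TPM at day 4 against 43.0 and 46.3 TPM at day 0 (log2 fold change 3.75 ± 0.13, adjusted p = 5.6e-16), and its relative MDK, midkine, had 1196 and 1233 against 494 and 448 TPM (log2 fold change 1.37 ± 0.08, adjusted p = 4.4e-12). GPC3 (2.25), a glypican, and HS6ST2 (2.04), a heparan sulfate sulfotransferase, were also higher, and SDC4, syndecan 4, was lower (-1.91).

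Of 65 measured homeobox and LIM genes of the neural list (of 84), 22 rose, 5 fell and 38 did not pass, with a median change of 0.45. SIX3, which specifies the forebrain and eye field, had 93.2 and 110.1 TPM at day 4 against 0.206 and 0.652 TPM at day 0 (log2 fold change 6.18 ± 0.20, adjusted p = 1.6e-16). LHX2, a LIM factor of cortex and eye, had 60.2 and 78.9 TPM at day 4 against 0.152 and 0.135 TPM at day 0 (log2 fold change 5.93 ± 0.35, adjusted p = 5.0e-12). For both genes each stem cell library was under 1 TPM. LHX5 (4.40), a LIM factor of the forebrain, rose too. The long noncoding RNA LINC01833, which lies beside SIX3, had 236 and 258 TPM at day 4 against 3.36 and 0.768 TPM at day 0 (log2 fold change 6.48 ± 0.47, adjusted p = 2.0e-10, or 5.83 without replicate 2 of D0 ESC), and reads of overlapping RNAs at that locus cannot be told apart if the libraries did not keep strand, which the labels do not state. FEZF1, a forebrain zinc finger repressor, was already present in stem cells and had 438 and 433 TPM at day 4 against 53.6 and 47.8 TPM at day 0 (log2 fold change 3.08 ± 0.33, adjusted p = 7.3e-08). EMX1 (-1.59), a factor of the dorsal cortex, fell at a low level. LDB2 fell from a higher level, with 10.2 and 7.48 TPM at day 4 against 50.9 and 57.6 TPM at day 0 (log2 fold change -2.50 ± 0.18, adjusted p = 2.0e-10). The COUP-TF nuclear receptors, which pattern the forebrain, rose, with NR2F2 (42.7 and 36.5 TPM at day 4 against 0.0520 and 0.0764 TPM at day 0, log2 fold change 5.25 ± 0.21, adjusted p = 6.6e-15) and NR2F1 (log2 fold change 4.34).

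Other transcription factor families held both rises and falls. Among 15 measured SOX genes 7 rose and 1 fell. SOX21, SOX5 (25.7 and 21.7 TPM at day 4 against 1.73 and 0.605 TPM at day 0, log2 fold change 3.55 ± 0.23, adjusted p = 2.3e-11) and SOX11 (2.17) rose most, and SOX21 had 156 and 166 TPM at day 4 against 10.1 and 5.94 TPM at day 0. SOX2, which stem cells and neural progenitors share, had 432 and 426 TPM at day 4 against 202 and 169.8 TPM at day 0 (log2 fold change 1.21 ± 0.10, adjusted p = 1.6e-09). SOX1, often used to mark neural commitment, rose but only to 1.86 and 1.97 TPM, against 0.264 and 0.177 TPM in stem cells (log2 fold change 1.26 ± 0.23, adjusted p = 1.5e-04), and SOX3 did not pass (0.00). Within the POU family, POU3F1 (66.4 and 82.6 TPM at day 4 against 14.2 and 14.99 TPM at day 0, log2 fold change 2.27 ± 0.19, adjusted p = 1.3e-09) and POU3F2 (2.77) rose, while POU3F4 fell (-2.32) beside POU5F1. PAX2 (13.2 and 18.9 TPM at day 4 against 0 and 0.243 TPM at day 0, log2 fold change 3.91 ± 0.32, adjusted p = 1.5e-09) and PAX8 (2.01) rose beside PAX6. In the FOX family 6 of 27 fell and 4 rose, with a median change of 0.00, and FOXH1 (-5.36) was among the falls. It is the DNA-binding partner of SMAD proteins under NODAL. In the bHLH group 11 of 50 fell and 8 rose (5 without replicate 2 of D0 ESC), and HES1, the NOTCH effector, had 44.6 and 57.9 TPM at day 4 against 11.2 and 9.11 TPM at day 0 (log2 fold change 2.22 ± 0.22, adjusted p = 3.6e-08). GLIS3 (3.68), SP8 (2.49), GLI3 (2.13) and ZIC1 (2.11) rose among the KLF, SP, GLI and ZIC zinc fingers.

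Of 44 measured genes of the apical domain and primary cilium of neuroepithelium, 13 rose and 1 fell, and the median change was 0.52 (2 fell without replicate 1 of D4 CT0.0 or without replicate 2 of D0 ESC). CRB2, a Crumbs protein of the apical membrane, had 35.8 and 38.1 TPM at day 4 against 6.03 and 5.13 TPM at day 0 (log2 fold change 2.53 ± 0.17, adjusted p = 6.0e-11), the opposite of its relative CRB3. The SHH co-receptors GAS1 (41.3 and 46.5 TPM at day 4 against 4.07 and 2.54 TPM at day 0, log2 fold change 3.40 ± 0.22, adjusted p = 2.9e-11) and BOC (3.09) and the receptor PTCH1 (1.97) rose. GLI1, a zinc finger factor of the Hedgehog pathway, was the member that fell (4.35 and 1.76 TPM at day 4 against 20.2 and 24.7 TPM at day 0, log2 fold change -2.60 ± 0.45, adjusted p = 6.7e-05). Genes of this pathway thus moved in both directions, and its activity was not measured. LRP2, megalin, an endocytic receptor of the neural tube's apical surface, had 48.1 and 55.4 TPM at day 4 against 2.45 and 0.767 TPM at day 0 (log2 fold change 4.41 ± 0.30, adjusted p = 4.7e-11).

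Contact and guidance genes rose more often than they fell. Of 21 measured ephrins and Eph receptors 8 rose and 2 fell, and of 51 semaphorin, slit, netrin and related genes 16 rose and 4 fell, with a median change of 0.51 in the first list and 0.52 in the second. EPHA4 had 160.1 and 186 TPM at day 4 against 7.36 and 9.36 TPM at day 0 (log2 fold change 4.22 ± 0.28, adjusted p = 5.2e-11), while EPHA1, a receptor of epithelial cells, had 3.85 and 4.76 TPM at day 4 against 96.8 and 106 TPM at day 0 (log2 fold change -4.28 ± 0.36, adjusted p = 1.7e-09). The 2 receptors moved in opposite directions, with no overlap of the libraries in either. Ligands rose beside EPHA4, with EFNA5 (3.16), EFNB2 (3.11) and EFNB1 (2.70). FLRT3, an adhesion molecule that binds UNC5 receptors, had 23.2 and 29.5 TPM at day 4 against 1.06 and 0.810 TPM at day 0 (log2 fold change 3.82 ± 0.22, adjusted p = 2.7e-12), and SEMA6D (2.94), RGMA (2.48), the neuropilin NRP2 (2.27) and DRAXIN (1.83) rose. UNC5D (-1.61) and SLIT2 (-1.30) fell. Of the 10 frizzled receptors, gathered by symbol after the values were seen, 5 rose and 0 fell (with an unadjusted p under 0.05, 6 were higher and 2 lower), led by FZD5 (142 and 164 TPM at day 4 against 19.4 and 22.1 TPM at day 0, log2 fold change 2.82 ± 0.16, adjusted p = 2.3e-12) and FZD2 (1.97). FRZB, a secreted WNT antagonist, had 110.2 and 117 TPM at day 4 against 3.83 and 4.38 TPM at day 0 (log2 fold change 4.49 ± 0.24, adjusted p = 1.0e-12).

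Growth factor pathway genes fell more often than they rose, as did all protein-coding genes tested (12.3% fell and 8.25% rose). Of 64 measured receptor tyrosine kinases, ligands and binding proteins 19 fell and 6 rose (median change -0.19). FLT1 and KDR, the VEGF receptors, fell, with 0.508 and 0.178 TPM at day 4 against 53.6 and 57.6 TPM at day 0 for FLT1 (log2 fold change -5.41 ± 0.22, adjusted p = 1.2e-14) and 4.06 and 4.08 against 50.3 and 57.0 TPM for KDR (log2 fold change -3.43 ± 0.17, adjusted p = 4.5e-13). VEGFB (-2.72), IGFBP6 (-2.72) and FGF11 (-2.25) fell too. Within the FGF family, FGF8 (42.2 and 40.9 TPM at day 4 against 0.654 and 0.665 TPM at day 0, log2 fold change 4.68 ± 0.27, adjusted p = 2.8e-12) and FGF9 (4.33) rose. IGFBP3 and IGFBP5, binding proteins of insulin-like growth factors, rose by 3.61 and 3.82, and ROR2, a WNT5A receptor, rose by 3.58. FGFR1, the main FGF receptor of these cells, stood at 644 ± 86.7 TPM at day 4 and 485 ± 53.6 TPM at day 0 (0.41).

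Of 46 measured neuronal cytoskeleton and adhesion genes 15 rose, 8 fell and 23 did not pass. TUBA1A, an alpha tubulin of young neurons and progenitors, had 1597 and 1710.0 TPM at day 4 against 329 and 324 TPM at day 0 (log2 fold change 2.34 ± 0.07, adjusted p = 3.7e-17). MAP2, a dendritic microtubule protein, had 85.4 and 95.3 TPM at day 4 against 8.20 and 8.10 TPM at day 0 (log2 fold change 3.32 ± 0.14, adjusted p = 1.6e-14), and STMN4 (3.40), DPYSL5 (3.12), MAP6 (3.08) and CNTN2 (2.94) rose. Falls in the same list were TUBA4A, another alpha tubulin (1.31 and 1.01 TPM at day 4 against 37.2 and 48.4 TPM at day 0, log2 fold change -4.33 ± 0.26, adjusted p = 5.3e-12), CNTN1 (-3.32), a relative of CNTN2, L1CAM (-1.87), an adhesion molecule of axons, GPM6A (-1.85) and STMN3 (-1.63), a relative of STMN4. MAPK10, the neural JNK3 kinase, had 151 and 158 TPM at day 4 against 4.59 and 3.99 TPM at day 0 (log2 fold change 4.88 ± 0.16, adjusted p = 2.2e-16). Of 20 markers of differentiated neurons 2 rose (1 without replicate 2 of either group) and 3 fell (0 without replicate 1 of D0 ESC), with summed levels of 267 and 274 TPM at day 4 against 244 and 239 TPM at day 0. TUBB3 (149 ± 11.2 TPM at day 4 and 106 ± 8.57 TPM at day 0, 0.48) and STMN2 (0.01) did not pass. Some secretory genes of neurons and endocrine cells were at their higher level in stem cells. GAL, the neuropeptide galanin, had 1.88 and 1.93 TPM at day 4 against 65.9 and 83.6 TPM at day 0 (log2 fold change -4.69 ± 0.28, adjusted p = 6.1e-12), and CHGA, chromogranin A, had 0.760 and 1.80 against 38.1 and 52.0 TPM (log2 fold change -4.36 ± 0.27, adjusted p = 1.5e-11). Among 47 synaptic and secretory genes 10 fell and 6 rose, and among 46 ion channel genes 14 fell and 5 rose, led by the leak channel KCNK1 (0.0935 and 0.143 TPM at day 4 against 20.3 and 18.8 TPM at day 0, log2 fold change -4.20 ± 0.24, adjusted p = 4.0e-12).

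Chromatin regulators held changes in both directions, some within the same complex. Over all genes tested, 7.51% rose and 9.24% fell. Of 45 measured Polycomb and histone methylation genes 8 rose and 4 fell. Inside Polycomb repressive complex 1 the Polyhomeotic subunits moved in opposite directions: PHC1 had 72.3 and 70.3 TPM at day 4 against 709 and 685 TPM at day 0 (log2 fold change -3.27 ± 0.09, adjusted p = 2.5e-17), and PHC2 had 126 and 145 TPM at day 4 against 19.9 and 17.3 TPM at day 0 (log2 fold change 2.80 ± 0.12, adjusted p = 1.8e-14). Each of these genes was the higher of the pair in both libraries of its group. Among the chromobox subunits, levels were lower and directions also differed, with CBX8 (11.1 and 13.1 TPM at day 4 against 0.642 and 0.668 TPM at day 0, log2 fold change 2.98 ± 0.24, adjusted p = 1.2e-09) rising and CBX7 (-1.40) falling. EPOP (2.34), KDM6B, an H3K27 demethylase (2.33, or 1.74 without replicate 2 of D0 ESC), and BMI1 (1.62) rose, and JARID2 (-1.20) fell. In the BAF remodelling list 6 of 28 rose (3 with TMM scaling) and 3 fell: SMARCD3 (1.37) and BCL7A (1.35) rose, and BCL11A (0.738 and 0.601 TPM at day 4 against 23.9 and 18.9 TPM at day 0, log2 fold change -3.74 ± 0.39, adjusted p = 5.2e-08) and SMARCA2 (-1.91) fell. Variant histones included H2AFY2, macroH2A2, with 156 and 152 TPM at day 4 against 30.6 and 31.8 TPM at day 0 (log2 fold change 2.27 ± 0.05, adjusted p = 1.7e-19). HMGN2, a nucleosome-binding protein, had 1149.6 and 1075 TPM at day 4 against 318 and 368 TPM at day 0 (log2 fold change 1.698 ± 0.05, adjusted p = 5.6e-17). Of 21 DNA methylation genes 4 fell and 2 rose (1 without replicate 2 of D4 CT0.0): APOBEC3B, a cytidine deaminase, fell (-3.52), UHRF1, which guides maintenance methylation, rose (1.76), and DNMT3B stood at 169 ± 3.58 TPM at day 4 and 334 ± 58.4 TPM at day 0 and did not pass (-0.97), though it did with TMM scaling (-1.11) and without replicate 1 of D0 ESC (-1.15).

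Of 52 measured splicing and RNA-binding regulators 9 rose, 7 fell and 36 did not pass, where 7.51% of all genes tested rose and 9.24% fell. RBM47 (0.921 and 0.766 TPM at day 4 against 34.9 and 51.6 TPM at day 0, log2 fold change -4.56 ± 0.25, adjusted p = 2.1e-12) and ESRP2 (-3.67) fell with ESRP1, and so did SRRM3, a splicing regulator of neurons (-2.09). CELF3 (1.86), RBM24 (1.79), NOVA1 (1.31) and NOVA2 (1.21), splicing factors of neural or muscle tissue, rose. General factors were abundant on both days, and HNRNPA1 had 4385 ± 72.1 TPM at day 4 and 3229.5 ± 83.7 TPM at day 0 (0.44). CIRBP, a cold-inducible RNA-binding protein, was among the risen genes with the largest gain in TPM, with 666 and 615 TPM at day 4 against 268 and 247 TPM at day 0 (log2 fold change 1.31 ± 0.10, adjusted p = 2.3e-10).

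Zinc finger genes rose more often than they fell. The protein-coding genes named ZNF, mostly DNA-binding proteins with a KRAB repressor domain, were gathered by symbol after the values were seen, from 204 symbol roots with at least 10 tested members. Of 475 tested ZNF genes 77 rose (16.2%) and 8 fell (1.68%), against 8.25% and 12.3% of all protein-coding genes tested. Their median change was 0.47, against 0.07 over protein-coding genes. Fitted on the 4 libraries alone, 41 rose and 3 fell. With TMM scaling 58 rose and 12 fell, with a median of 0.35 against -0.03. Rescaled without mitochondrial and ribosomal protein genes, 79 rose and 9 fell, with a median of 0.45 against 0.04. On chromosome 19, which holds many of them in tandem clusters, 40 rose and 4 fell of 237, and elsewhere 37 rose and 4 fell of 238. Summed, ZNF genes held 9240 and 9507 TPM at day 4, against 6855 and 6460 TPM at day 0. ZNF521, which promotes neural differentiation of stem cells, had 111 and 156 TPM at day 4 against 12.3 and 9.92 TPM at day 0 (log2 fold change 3.46 ± 0.14, adjusted p = 1.5e-14). Many ZNF genes are near-identical copies of each other, and the values of single members are uncertain where reads could be shared. MALAT1, a nuclear RNA, was higher and the mitochondrial share lower in the same libraries, as given above. Apart from the rescaled fit, their part in this result was not tested.

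**Figure D3:**
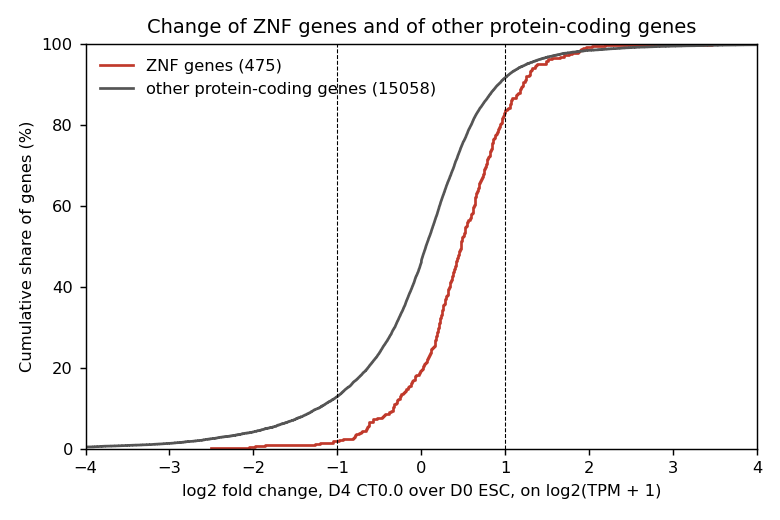
Cumulative share of genes by log2 fold change of untreated day 4 cells over stem cells, for 475 ZNF genes and for the other protein-coding genes tested. The ZNF curve lies to the right over most of its course, with a median of 0.47 against 0.07 for all 15533 protein-coding genes; dashed lines mark changes of -1 and 1.

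Metabolic genes fell more often than they rose, which also held over all protein-coding genes tested (12.3% fell and 8.25% rose). In the fuel list 10 of 35 measured members fell and 1 rose (3 without replicate 2 of D0 ESC). LDHA, the lactate dehydrogenase subunit of glycolytic cells, had 34.5 and 35.9 TPM at day 4 against 892 and 659 TPM at day 0 (log2 fold change -4.41 ± 0.21, adjusted p = 1.5e-13), while LDHB, its partner, did not pass, at 1349 ± 62.6 TPM at day 4 and 1985 ± 82.0 TPM at day 0 (-0.56). LDHA was low in both day 4 libraries and did not overlap between the groups. HK1 (-2.24), which opens glycolysis, PDK1 (-1.78), which holds pyruvate out of the mitochondrion, and ALDOA (386 and 416 TPM at day 4 against 1375 and 978 TPM at day 0, log2 fold change -1.53 ± 0.14, adjusted p = 1.3e-08) fell as well. UGP2, which makes UDP-glucose, had 68.4 and 67.0 TPM at day 4 against 939.7 and 721 TPM at day 0 (log2 fold change -3.58 ± 0.14, adjusted p = 2.6e-15). Of 28 amino acid and glucose transporters 13 fell and 4 rose, among them SLC7A5 (14.2 and 15.6 TPM at day 4 against 69.6 and 102 TPM at day 0, log2 fold change -2.43 ± 0.15, adjusted p = 8.3e-12), a leucine importer, SLC16A3 (-2.79), a lactate exporter, and SLC2A3 (53.3 and 56.8 TPM at day 4 against 253 and 227 TPM at day 0), the glucose transporter GLUT3. SLC6A8, the creatine importer, rose (352 and 365 TPM at day 4 against 70.0 and 68.3 TPM at day 0, log2 fold change 2.36 ± 0.21, adjusted p = 6.8e-09), and SLC2A1, GLUT1, did not pass (-0.07). ODC1, the first enzyme of polyamine synthesis, was among the abundant rises, with 572 and 551 TPM at day 4 against 53.7 and 87.7 TPM at day 0 (log2 fold change 3.01 ± 0.12, adjusted p = 9.2e-15). Fatty acid and lipid genes fell in 10 of 32 and rose in 3, with APOE at 261 and 255 TPM at day 4 against 690.1 and 635 TPM at day 0 (log2 fold change -1.35 ± 0.19, adjusted p = 6.1e-06).

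Immune, metal and stress genes fell or did not pass. Of 37 measured genes of antigen presentation and interferon response 19 fell and 0 rose (31 lower and 1 higher at an unadjusted p under 0.05), with a median change of -1.06. Fitted on the 4 libraries alone, 12 fell. IFI30, a lysosomal thiol reductase, had 0.665 and 0.992 TPM at day 4 against 44.3 and 44.3 TPM at day 0 (log2 fold change -4.64 ± 0.36, adjusted p = 4.6e-10), and the immunoproteasome subunits PSMB8 (-3.26) and PSMB9 (-2.43) fell. IFITM1, an interferon-induced membrane protein that stem cells express without interferon, had 44.5 and 45.7 TPM at day 4 against 429.8 and 319 TPM at day 0 (log2 fold change -3.01 ± 0.21, adjusted p = 1.0e-10). HLA-B (-2.36) and HLA-C (-1.82) fell, while B2M, the light chain of class I molecules, stood at 153 ± 24.2 TPM at day 4 and 278 ± 35.1 TPM at day 0 and did not pass (-0.86), though it did with TMM scaling (-1.001) and without replicate 1 of D4 CT0.0 (-1.02). HLA genes are close copies of each other, so their single values are uncertain. Of 36 metallothionein, iron and redox genes 8 fell and 0 rose (23 lower and 2 higher at an unadjusted p under 0.05). MT1G had 3.20 and 0.652 TPM at day 4 against 301 and 92.7 TPM at day 0 (log2 fold change -5.997 ± 0.45, adjusted p = 2.6e-10), with the stem cell libraries far apart from each other but both above the day 4 libraries, and the change ran between -6.84 and -5.15 when 1 library was left out. Of 29 chaperone and unfolded protein response genes 8 fell and 0 rose (16 lower and 3 higher at an unadjusted p under 0.05), among them CHAC1 (-2.93) and HSPA2 (-2.94), while HSP90AB1 and HSPA8 did not pass (-0.42 and -0.08). Among apoptosis regulators PMAIP1, the BH3-only protein NOXA, had 2.50 and 2.58 TPM at day 4 against 151 and 114 TPM at day 0 (log2 fold change -5.22 ± 0.28, adjusted p = 1.3e-12), whereas BCL2L11, the BH3-only protein BIM, had 68.8 and 73.9 TPM at day 4 against 13.8 and 10.1 TPM at day 0 (log2 fold change 2.49 ± 0.20, adjusted p = 9.7e-10).

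Of 51 measured actin and membrane cytoskeleton genes 20 fell, 3 rose and 28 did not pass, with a median change of -0.32. ANXA2, a calcium-dependent membrane binder, had 3.40 and 1.74 TPM at day 4 against 133 and 112 TPM at day 0 (log2 fold change -5.15 ± 0.23, adjusted p = 3.5e-14), and its partner S100A10 had 0.452 and 0.965 TPM at day 4 against 77.1 and 71.5 TPM at day 0 (log2 fold change -5.48 ± 0.45, adjusted p = 1.3e-09). Both partners of that complex were at a few TPM or less in both day 4 libraries. S100A11 (-5.36), S100A6 (-3.77) and S100A16 (-2.69) fell too. TMSB4X, thymosin beta 4, which binds actin monomers, was abundant and fell, with 2221 and 2048 TPM at day 4 against 6825 and 5367 TPM at day 0 (log2 fold change -1.504 ± 0.11, adjusted p = 2.4e-10). The actins themselves did not pass, ACTG1 at 3078 ± 125 TPM at day 4 and 3099 ± 118 TPM at day 0 (-0.01) and ACTB at 3129.8 ± 240.3 and 2611 ± 90.2 TPM (0.26). RAB17, a small GTPase of polarised epithelia, had 0.0749 and 0.163 TPM at day 4 against 58.0 and 70.1 TPM at day 0 (log2 fold change -5.86 ± 0.17, adjusted p = 4.1e-17).

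**Figure D4:**
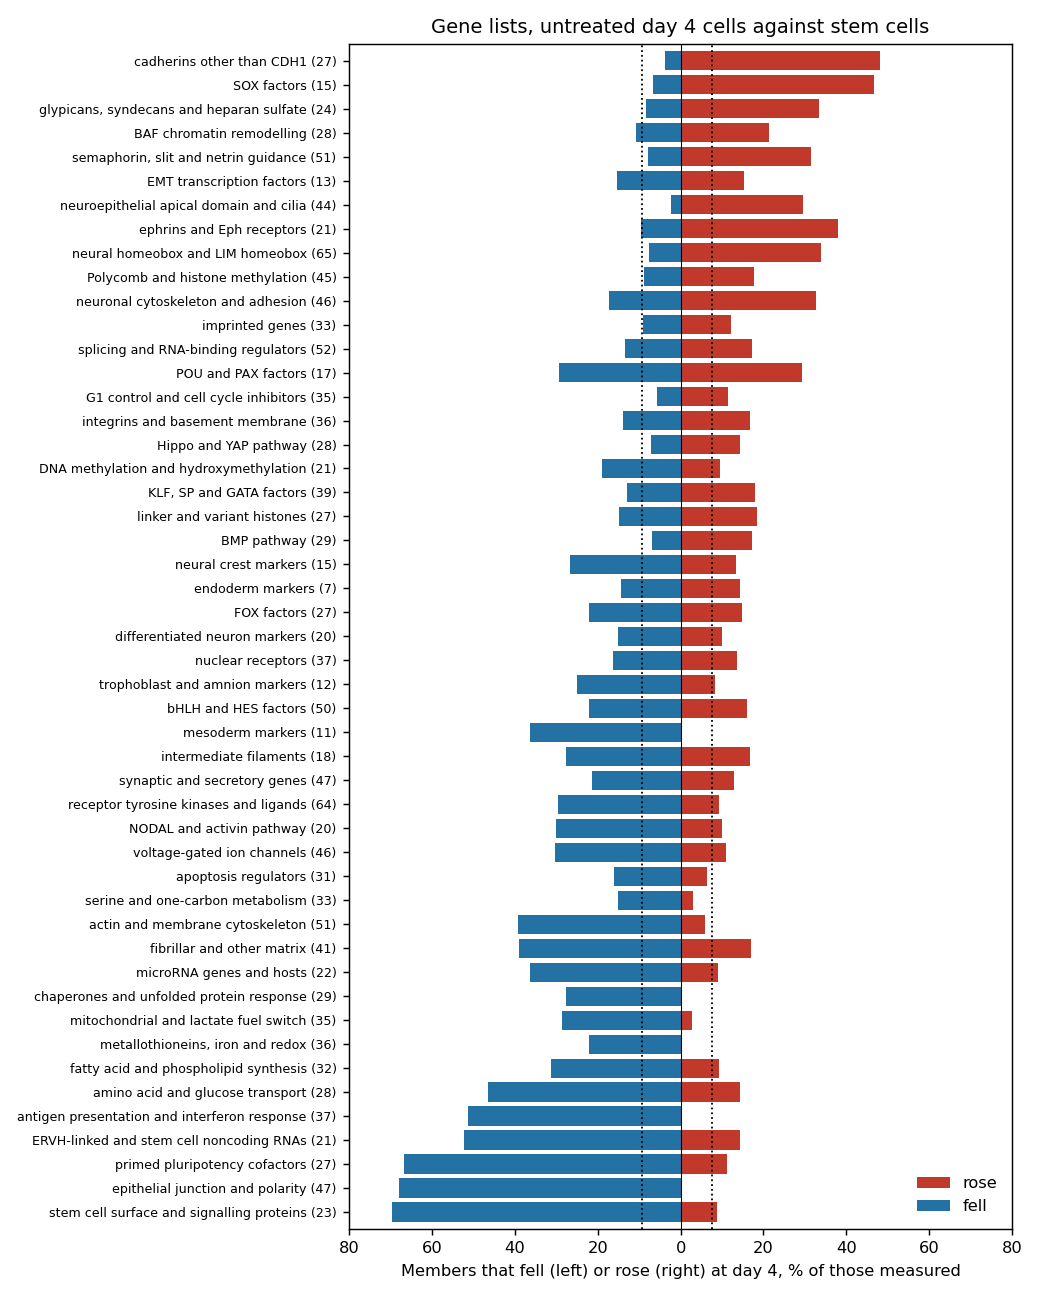
Share of measured members that rose (bars to the right) or fell (bars to the left) in untreated day 4 cells against stem cells, for the 49 gene lists ordered by their median change, with the number measured beside each name. Dotted lines mark the shares over all 28221 genes tested, 7.51% higher and 9.24% lower. At the bottom stand stem cell surface proteins (16 of 23 lower) and epithelial junctions (32 of 47 lower, 0 higher).

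Some abundant housekeeping genes differed little. The 10 most abundant genes that changed by under 0.25 on the log2 scale, outside the mitochondrial and ribosomal protein genes, included EEF1A1 (11188 ± 34.7 TPM at day 4 and 11833 ± 1268 TPM at day 0, -0.08), RACK1 (-0.01), HMGA1 (-0.08) and TPT1 (0.16). Among cell cycle genes, CCNE2 (13.8 and 12.2 TPM at day 4 against 3.34 and 2.83 TPM at day 0, log2 fold change 1.77 ± 0.17, adjusted p = 2.3e-08), a cyclin of the G1 to S transition, rose, and CCNB1 (-0.02) and CDK1 (-0.34) did not pass.

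Markers of other lineages are given by their summed levels. The 17 mesoderm markers summed to 11.6 and 12.2 TPM in the untreated day 4 libraries, against 66.0 and 69.6 TPM in the stem cell libraries, where KDR made up most of the sum. Of the 11 measured, 4 fell and 0 rose (4 lower and 2 higher at an unadjusted p under 0.05), and MSGN1, HAND1 and FOXF1 were listed at 0 in all 4 libraries. The 16 endoderm markers summed to 4.41 and 3.65 TPM at day 4 against 6.38 and 13.8 TPM at day 0, with 1 of 7 measured higher and 1 lower and TTR listed at 0 throughout. The 22 trophoblast and amnion markers summed to 96.3 and 114 TPM at day 4 against 86.3 and 71.6 TPM at day 0, with IGFBP3 at 84.9 and 98.4 TPM at day 4 against 7.35 and 5.86 TPM at day 0. Of 12 measured, IGFBP3 rose and 3 fell, and GATA3, HAND1 and XAGE2 were listed at 0 in all 4 libraries. The 16 neural crest markers summed to 71.2 and 88.0 TPM at day 4 against 73.3 and 70.0 TPM at day 0. Of 15 measured, 2 rose and 4 fell: NGFR (24.1 and 30.2 TPM at day 4 against 6.02 and 5.22 TPM at day 0, log2 fold change 2.08 ± 0.21, adjusted p = 3.0e-08) and S1PR3 (2.78) rose, while SOX10 (-1.68) and FOXD3 fell, and TFAP2B was listed at 0 in all 4 libraries.

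Set beside day 4 cells that received CT at 4.0 µM, the untreated cells differed in 2341 of 28221 genes (8.30%), of which 1407 were higher (4.99%) and 934 lower (3.31%) in untreated cells. With TMM scaling 1066 were higher and 1075 lower, and fitted on the 4 libraries compared alone 648 were higher and 415 lower. This comparison and the one with stem cells share the untreated libraries, so values are given side by side and no overlap is drawn. Stem cell factors that fell did not differ beyond the threshold between the day 4 groups: POU5F1 averaged 26.5 ± 8.40 TPM in untreated cells and 22.1 ± 5.23 TPM at CT4.0 (log2 fold change 0.23 ± 0.31, adjusted p = 0.692), PHC1 71.3 ± 1.40 and 63.4 ± 4.83 TPM (0.17), and CDH1 0.385 ± 0.173 and 0.149 ± 0.0797 TPM (0.27). The ZEB2 level also did not pass, with 52.2 ± 2.49 TPM in untreated cells and 55.1 ± 7.0002 TPM at CT4.0 (log2 fold change -0.07 ± 0.15, adjusted p = 0.84). CDH2 (191 ± 1.19 and 119 ± 0.116 TPM, 0.68), PRTG, protogenin (453 ± 8.74 and 295 ± 24.9 TPM, 0.62), and GREB1L (193 ± 6.16 and 131 ± 6.38 TPM, 0.56) were under the size threshold of 1. For each of them, both untreated libraries nonetheless lay above both CT4.0 libraries. PRTG, a neural tube adhesion receptor, had 14.5 and 14.3 TPM in the stem cell libraries, and GREB1L, a retinoic acid-linked coactivator of development, had 1.95 and 1.68 TPM.

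Anterior factors were higher in untreated cells than at CT4.0. PAX6 averaged 103 ± 4.81 TPM in untreated cells and 1.49 ± 0.410 TPM at CT4.0 (log2 fold change 5.40 ± 0.16, adjusted p = 1.6e-16), a level at CT4.0 close to that of stem cells. RAX was at 112 ± 11.5 TPM in untreated cells and 0.0100 ± 0.0142 TPM at CT4.0 (log2 fold change 6.80 ± 0.21, adjusted p = 1.7e-16), DLK1 at 569 ± 56.3 and 1.51 ± 0.0127 TPM (log2 fold change 7.82 ± 0.35, adjusted p = 9.7e-14) and SIX3 at 102 ± 11.99 and 0.0302 ± 0.0428 TPM (log2 fold change 6.63 ± 0.20, adjusted p = 1.2e-16). FEZF1 and OTX2, both present in stem cells, were higher in untreated cells and low at CT4.0, where FEZF1 was listed at 0 in both libraries and OTX2 averaged 0.232 ± 0.102 TPM. FZD5 averaged 153 ± 15.1 TPM in untreated cells and 0.392 ± 0.0867 TPM at CT4.0 (log2 fold change 6.79 ± 0.16, adjusted p = 4.9e-18), and PTN 614 ± 3.92 and 45.6 ± 2.33 TPM (log2 fold change 3.72 ± 0.13, adjusted p = 1.5e-15). The miR-302 host, RP11-148B6.1, was also higher in untreated cells, with 337 ± 96.7 TPM in untreated cells and 2.45 ± 0.753 TPM at CT4.0 (log2 fold change 6.60 ± 0.69, adjusted p = 1.4e-07). FGF8 was lower in untreated cells, with 41.6 ± 0.896 TPM in untreated cells and 201 ± 39.6 TPM at CT4.0 (log2 fold change -2.24 ± 0.27, adjusted p = 8.9e-07).

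Several genes that fell were lower in untreated cells than at CT4.0. LDHA averaged 35.2 ± 1.02 TPM in untreated cells, 464 ± 25.8 TPM at CT4.0 (log2 fold change -3.68 ± 0.21, adjusted p = 6.8e-12) and 775 ± 165 TPM in stem cells. S100A10 averaged 0.709 ± 0.363 TPM in untreated cells and 50.8 ± 20.8 TPM at CT4.0 (log2 fold change -4.88 ± 0.45, adjusted p = 1.8e-08), and ANXA2 2.57 ± 1.17 and 61.4 ± 2.43 TPM (log2 fold change -4.17 ± 0.23, adjusted p = 2.8e-12). For these 3 genes the CT4.0 mean lay between the untreated mean and the stem cell mean. SLC16A3 was higher at CT4.0 than on day 0 as well, with 3.75 ± 0.407 TPM in untreated cells, 115 ± 27.5 TPM at CT4.0 and 33.3 ± 14.3 TPM in stem cells (log2 fold change -4.60 ± 0.34, adjusted p = 4.6e-10 for untreated cells over CT4.0). CD9 averaged 1.25 ± 0.584 TPM in untreated cells and 17.3 ± 6.67 TPM at CT4.0 (log2 fold change -2.995 ± 0.27, adjusted p = 1.2e-08).

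**Figure D5:**
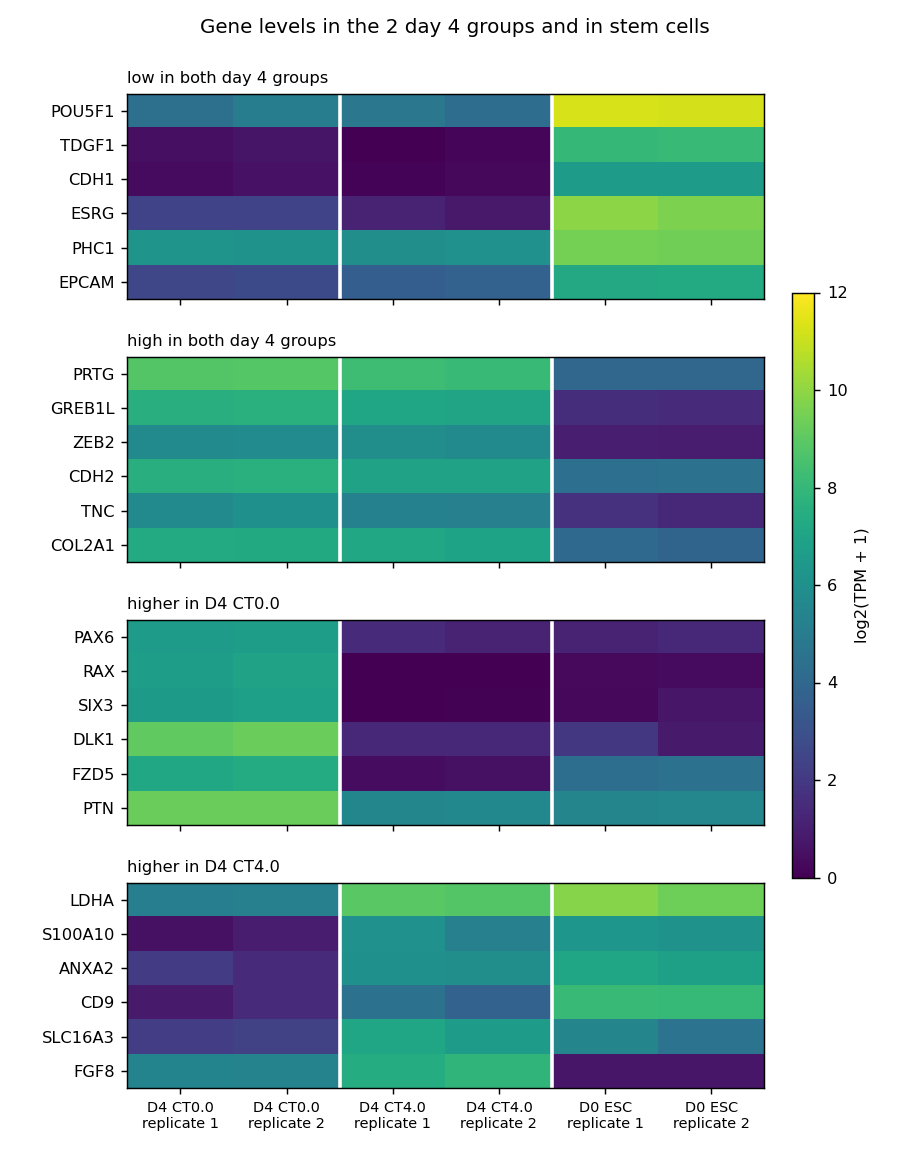
Level of 24 genes as log2(TPM + 1) in each library of untreated day 4 cells, CT4.0 day 4 cells and stem cells, left to right, 2 libraries in each group. The upper block holds stem cell genes low in both day 4 groups, the next genes high in both, then genes higher in untreated cells than at CT4.0, and last genes higher at CT4.0 than in untreated cells.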

How the data were processed

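Bulk RNA from 38 H9-derived libraries was measured by sequencing, and the authors deposited 1 table of TPM values per gene. The tools named are Salmon 0.8.2 and CASAVA 1.7 and the build is hg38, per the submitters' processing notes, with settings not given in the sources used here. TPM carries no read depth, so no counting interval could be given. Gene names are those of the table, and positions are from the annotation of GENCODE release 29.

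Values were analysed as log2(TPM + 1). Of 58219 genes, 28221 reached 1 TPM in 2 or more libraries and were fitted with limma 3.58.1 (R 4.3.3, lmFit and eBayes with trend) as 19 group means, all groups sharing 1 estimate of the spread with 19 residual degrees of freedom. D4 CT0.0 was set against D0 ESC and against D4 CT4.0. A gene was called when the Benjamini-Hochberg adjusted p over all tested genes was under 0.05 and the log2 fold change at least 1 in size. All adjusted p-values in the text are from this limma fit or its stated alternatives. Libraries with the same replicate number shared little deviation from their group means over all tested genes (correlation 0.011 between D4 CT0.0 and D0 ESC). A correlation over all genes cannot exclude that they are paired. The alternatives were TMM scaling (trimmed mean of M values, computed on TPM), rescaling without mitochondrial and ribosomal protein genes, a pseudocount of 0.1, other filters on low values, protein-coding genes alone, the compared libraries alone, a replicate block, and leaving out each library.

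The groups, the 49 gene lists and the tests were chosen with earlier results of these data known. Named genes are the 6 markers, the 30 largest called changes in each direction without overlap, the 15 called genes with the largest TPM gain or loss, up to 5 called changes in each direction and 3 abundant uncalled members per list, and 10 abundant genes that changed by under 0.25. Chosen after their values were seen were APOE, CLDN6, CLDN10, CRB3, FZD2, FZD5, GRHL2, HLA-B, HLA-C, OVOL2, PRSS8, SLC2A3, SMAD7, SNAI1, SOX2, SOX3, SPINT1, ST14, TJP1, ZNF521 and the markers listed at 0. A few genes that this rule names are not reported here.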

Additional observations from a re-analysis of the deposited data

How the results depend on the processing

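Genes called in D4 CT0.0 against D0 ESC numbered 2851 (1227 higher, 1624 lower) when only the 4 libraries compared were fitted, and 1300 were higher when protein-coding genes alone were tested, where fewer genes enter. Against D4 CT4.0, the 4 libraries compared gave 1063 genes (648 higher, 415 lower). The fits on 4 libraries keep 2 residual degrees of freedom. With 1 library left out, 1961 to 2344 genes were higher and 2452 to 2847 lower than in D0 ESC (4413 to 4928 in all), and 1125 to 1587 higher and 842 to 968 lower than in D4 CT4.0 (2093 to 2448 in all). The replicate block gave 2126 higher and 2609 lower against D0 ESC (4735 in all) and 1408 higher and 942 lower against D4 CT4.0 (2350 in all). Whether libraries of the same number are paired is not known. With the block, all 276 tested genes named in the text kept their call. No named gene that was called in the main fit or in an alternative changed direction between them. Direction was not checked for genes called in neither. LINC00599, C1orf61 and LDB2 are not among the 276 genes. With a pseudocount of 0.1, the log2 change of 28 named genes moved by over 1.5 times, MIR302C, MIR367 and RP11-148B6.1 lost their call and SNAI1 gained one. With TMM scaling 273 of 276 named genes kept their side of the threshold, and B2M, DNMT3B and SNAI1 were called lower. With the 4 libraries compared alone 15 of 276 lost their call (BMI1, CELF3, GLI1, KDM6B, LEFTY1, LEFTY2, LINC01405, MT1G, PSMB9, SMAD3, SMAD7, SMARCA2, SOX10, TMSB4X and ZIC1, limma adjusted p of 0.051 to 0.15), with fewer libraries behind the spread. Read depth is not held by TPM, and 2 libraries a group limit the precision of every value.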

Other observations

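Some of the deepest falls were in genes outside the lists above. RARRES2, the chemoattractant chemerin, had 0.288 and 1.44 TPM at day 4 against 415 and 406 TPM at day 0 (log2 fold change -7.86 ± 0.38, limma adjusted p = 1.9e-13). IDO1, which breaks down tryptophan, was at 0.0640 and 0 TPM at day 4 and 113 and 98.4 TPM at day 0, and the chemokine CXCL5 at 0.514 and 0.313 and 111 and 119.9 TPM. SCGB3A2, a secretoglobin best known from airway epithelium, had 16.3 and 20.05 TPM at day 4 against 990.1 and 846 TPM at day 0. MFGE8, a milk fat globule protein that binds integrins, was abundant on both days, with 172 and 170.4 TPM at day 4 against 1764 and 1402 TPM at day 0 (-3.19). Among the largest rises, SMOC1, a secreted calcium-binding matrix protein, had 205 and 227 TPM at day 4 against 1.7039 and 1.35 TPM at day 0 (log2 fold change 6.43 ± 0.18, limma adjusted p = 1.3e-17). LIX1 (5.82), PRSS23 (5.57), a serine protease, PAMR1 (5.52) and CNTFR (4.73), a receptor of ciliary neurotrophic factor, rose as well. CNTFR averaged 70.6 ± 9.19 TPM in untreated cells and 124 ± 3.73 TPM at CT4.0, whereas PAMR1 averaged 275 ± 35.2 TPM in untreated cells and 3.33 ± 1.36 TPM at CT4.0.

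Of 33 measured imprinted genes 4 rose and 3 fell (7 rose with a pseudocount of 0.1). Over all genes tested, 7.51% rose and 9.24% fell, against which the counts of this paragraph are to be read. Beside DLK1 and MEG3, the retrotransposon-derived PEG10 rose, with 158 and 159 TPM at day 4 against 46.5 and 52.3 TPM at day 0 (log2 fold change 1.66 ± 0.08, limma adjusted p = 8.5e-14). SNRPN, a splicing protein gene of the Prader-Willi locus, had 304 and 330.4 TPM at day 4 against 881 and 805 TPM at day 0 (log2 fold change -1.41 ± 0.07, limma adjusted p = 5.3e-13). In the Hippo and YAP pathway 4 of 28 measured members rose and 2 fell (1 without replicate 1 of D4 CT0.0 or without replicate 2 of D0 ESC). The risen ones were NUAK2, a kinase (2.32), AMOTL2 (1.49), TEAD2, a DNA-binding partner of YAP (1.28), and AJUBA (1.22). Among 27 linker and variant histone genes and nucleosome-binding proteins 5 rose and 4 fell, with H1F0, a linker histone, at 82.6 and 73.8 TPM at day 4 against 261 and 197 TPM at day 0 (-1.53) and H2AFY, macroH2A1, at 226 and 237 TPM at day 4 against 80.6 and 106 TPM at day 0 (1.32).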
